A study of Rattus norvegicus with 8 samples.

Results

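The early response of spinal cord cultures to fibroblast growth factor 9 (FGF9) was read from 4 of the 8 arrays of the series, chosen by the group and replicate number in their titles. Rat myelinating cultures treated with human FGF9 at 100 ng/ml for 24 h (2 arrays) were compared with untreated cultures of the same time point (2 arrays). The other 4 arrays hold FGF9 and untreated cultures collected at 10 days, 2 each, and serve here as a later time point and in the estimate of the spread. All cultures came from spinal cords of Sprague-Dawley rat embryos at embryonic day 15.5, and no group carried a genetic change. Such cultures mix neurons, astrocytes, oligodendrocytes, microglia and some mesenchymal cells, so a value is a level in a mixture, and fewer cells of a type cannot be told apart from less RNA per cell. The source field of the labels names neurosphere-derived astrocytes, while the titles and the cell type field name myelinating cultures. Total RNA was hybridised to Affymetrix Rat Gene 1.0 ST arrays, which read each gene through probes along its length. Levels are the deposited values, read as log2 from their range because the sources used here do not state the scale, so that a difference of 1.0 is 2-fold, and the number of arrays limits the precision.

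FGF9 is a secreted ligand that binds the tyrosine kinase receptors FGFR1, FGFR2 and FGFR3 on glia and other cells, together with heparan sulfate chains. Activated receptors switch on the RAS-ERK cascade and the PI3K-AKT pathway. ERK raises transcription through ETS and AP-1 factors and MYC, and AKT keeps FOXO factors out of the nucleus. In the nervous system FGF9 is made mainly by neurons and is known as a mitogen for glial cells and as a factor that acts on astrocyte and oligodendrocyte maturation.

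The arrays were set against the markers of the cells that the label names. In FGF9 cultures Snap25, a synaptic membrane protein, stood at 11.76 and 12.74, against 11.83 and 12.91 in controls. Mbp, myelin basic protein, stood at 12.29 and 10.78 with FGF9 and at 12.67 and 11.06 in controls, and Gfap, the astrocyte filament, at 12.13 and 11.24 with FGF9 and at 12.90 and 12.99 in controls. The median level over all features lay between 6.62 and 6.73 on the 8 arrays, so neuronal, oligodendrocyte and astrocyte transcripts all lay far above it, as in the mixed culture of the titles. Aif1 of microglia was low, at 6.42 and 5.69 with FGF9 and 6.69 and 5.98 in controls. The 23 microglia and macrophage markers as a list were not, with a median control level at 24 h of 7.93, against 7.60 over all genes. Pecam1 of endothelium lay near the 5th percentile of the 24 h arrays (4.85 to 4.93), at 5.38 and 5.36 with FGF9 and 5.53 and 5.12 in controls. Snap25, Aif1 and Pecam1 were named for this check.

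Within a time point, arrays with the same replicate number share a prefix in their sample descriptions, and are called pair 1 and pair 2. The labels do not give the meaning of the prefix, which pair 2 at 24 h also shares with pair 1 at 10 days. At 24 h the FGF9 and control arrays correlated across features at 0.989 within pair 1 and 0.984 within pair 2, while the 2 FGF9 arrays correlated at 0.976 and the 2 control arrays at 0.973. The culture pair therefore separated the arrays more than FGF9 did, and each gene is described by its difference within each pair. The labels do not say that the replicates were separate cultures, so p-values measure only the spread between these arrays.

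Of 14506 genes, 4606 (31.8%) were higher with FGF9 in both pairs and 4771 (32.9%) were lower in both, so that the pairs gave the same sign for 64.6% of genes. The differences correlated between the pairs at 0.52 across genes, which are not independent replicates. Differences were larger in pair 2, with a median absolute size of 0.206, against 0.164 in pair 1. Of 170 genes past 2-fold in pair 1, 156 had the same sign in pair 2, and of 408 past 2-fold in pair 2, 358 had the same sign in pair 1. The genes at least 2-fold higher in both pairs numbered 76 (0.524% of all genes) and those at least 2-fold lower in both numbered 20 (0.138%). At this size, more genes were higher than lower. The genes that were 2-fold lower had control means from 7.52 to 12.4, while control means of the 2-fold higher genes ran from 5.17 to 11.1. The median control level over all genes was 7.60. A gene near the low end of the arrays has little room to fall 2-fold, which limits this comparison.

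Significance depended on which arrays estimated the spread. In the limma fit to all 8 arrays, with the pair as a block, 0 genes (0%) had an adjusted p under 0.05, the smallest was 0.122, and 1800 genes had an unadjusted p under 0.05, of which 853 (5.88%) were higher and 947 (6.53%) lower. In the fit to the 24 h arrays alone, with the same block and 1 residual degree of freedom, 237 genes passed (smallest adjusted p = 0.011), of which 169 (1.17%) were higher and 68 (0.469%) lower. Of these 237, 232 had an unadjusted p under 0.05 with all 8 arrays, and in 178 the levels of the FGF9 and control arrays did not overlap. The 237 were picked on these same 24 h arrays, so both counts are a description. The share of all genes without overlap is not given here. The mean differences of the 237 genes ran up from 0.762 and down from -0.785. Without the pair block 0 genes passed in limma with all 8 arrays (280 at an unadjusted p under 0.05) and 0 with the 24 h arrays alone (673). Below, "rose" and "fell" are used of genes that passed in the fit to the 24 h arrays alone, whose adjusted p is the one quoted; none of them passed with all 8 arrays. Each ± is the standard error of the fit to all 8 arrays, with 2 pairs.

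**Figure D1:**
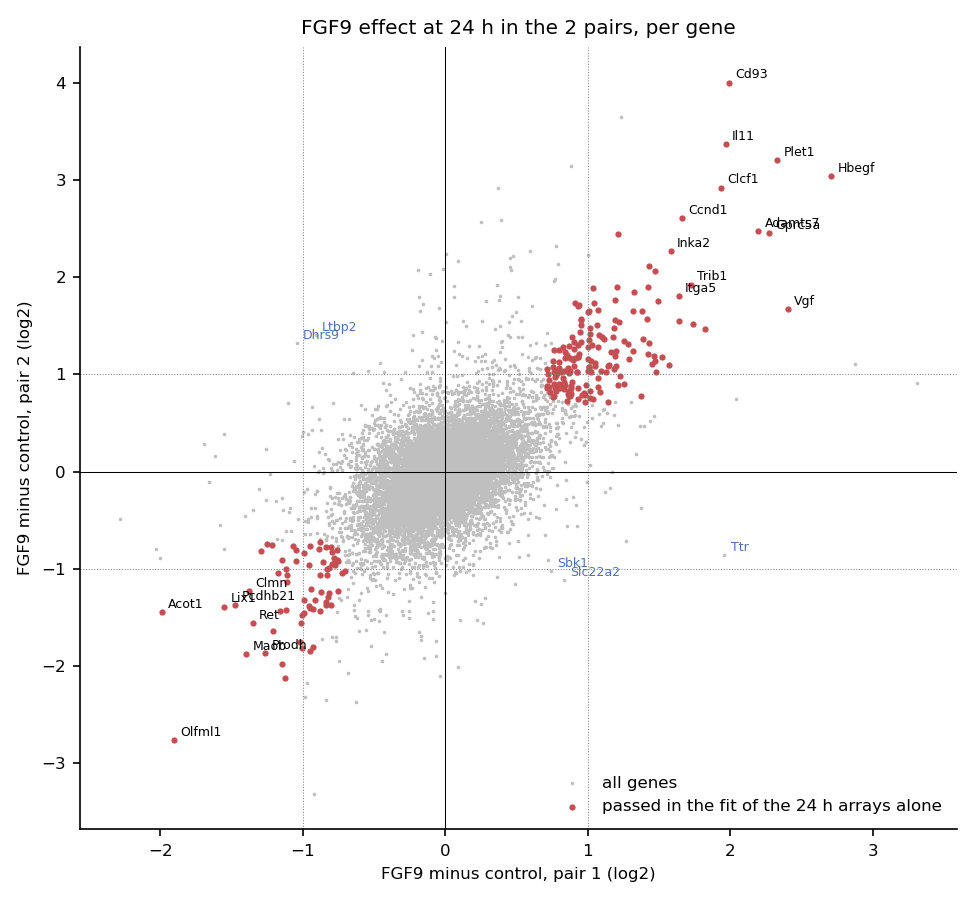
Difference of FGF9 minus control at 24 h (log2) in pair 1 (horizontal axis) and pair 2 (vertical axis) for 14506 genes, with dotted lines at 2-fold. The 237 genes that passed in the fit to the 24 h arrays alone are red and lie along the diagonal, more of them upper right (169) than lower left (68). Blue names mark the 5 genes with the largest opposed pair differences.

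The 20 genes with the largest difference shared by both pairs (the smaller of the pair differences) in each direction all passed in the fit to the 24 h arrays (adjusted p from 0.011 to 0.041, and from 0.122 to 0.408 with all 8 arrays). They were ranked on these same differences, so their sizes are a description. In 19 of the 20 higher genes and 19 of the 20 lower genes the groups did not overlap. This is likewise a description, since the ranking favours such genes and the share over all genes is not given. Hbegf, a membrane-anchored ligand of the EGF receptor, stood at 10.99 and 11.17 in FGF9 cultures, against 8.28 and 8.13 in controls. Both FGF9 arrays lay far above both control arrays, and Hbegf rose by 2.88 ± 0.28 (adjusted p = 0.011). Its family moved little beside it: of 12 measured EGF ligands and receptors, 4 were higher and 1 lower in both pairs, with a median of 0.04. Areg, another ligand of the same receptor, differed by only 0.31 and 0.36 in the pairs, and Erbb4, a neuregulin receptor, by -0.50 and -0.67.

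Cytokines of the interleukin-6 family, which act through the shared receptor chain gp130, were also among the 20 highest genes. Il11 stood at 7.43 and 8.91 with FGF9, against 5.46 and 5.55 in controls, and rose by 2.67 ± 0.45 (adjusted p = 0.0281). Clcf1, a ligand of the ciliary neurotrophic factor receptor, stood at 7.91 and 8.51 with FGF9 and at 5.97 and 5.59 in controls, and rose by 2.43 ± 0.25 (adjusted p = 0.0231). The FGF9 arrays lay above both controls for each. Lif, which promotes astrocyte formation and oligodendrocyte survival, stood at 6.76 and 7.79 with FGF9, against 6.15 and 6.09, and Socs3, the feedback inhibitor of this signalling, at 7.76 and 7.77, against 7.25 and 7.16, and neither passed. Cntf, the cytokine of astrocytes and Schwann cells, went the other way, at 8.30 and 7.31 with FGF9 and 8.92 and 8.82 in controls, as did Lifr, the LIF receptor (-0.39 and -0.90), and Ctf1 (-0.71 and -0.40), which did not pass either. Of 16 measured members of the family, 7 were higher and 7 lower in both pairs, and 6 and 2 had an unadjusted p under 0.05.

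Several of the other leading genes encode surface and secreted proteins. Plet1, a membrane protein known from placenta and epithelial progenitors, stood at 7.68 and 8.62 with FGF9 and 5.35 and 5.42 in controls and rose by 2.77 ± 0.49 (adjusted p = 0.0231). Gprc5a, an orphan receptor induced by retinoic acid in epithelia, stood at 7.26 and 7.81, against 4.98 and 5.35, and rose by 2.36 ± 0.30 (adjusted p = 0.011). The controls of both genes lay close to the low end of the arrays, where folds can be understated. Cd93, a lectin-like receptor of endothelial and myeloid cells, stood at 8.25 and 9.62 with FGF9 and 6.25 and 5.62 in controls and rose by 3.00 ± 0.44 (adjusted p = 0.0386), with pair differences of 1.99 and 4.00. Of 15 endothelial markers, 8 were higher and 3 lower in both pairs, with summed levels (log2 of the mean linear level over the list) of 5.76 and 6.43 with FGF9 and 5.62 and 6.43 in controls. Of 23 microglia and macrophage markers 2 were higher and 4 lower in both pairs, with summed levels of 9.50 and 9.02 with FGF9 and 9.93 and 8.79 in controls. The part of either cell type in the Cd93 difference was not tested. Flt1, a VEGF receptor, differed by 0.60 and 2.27 and did not pass. Vgf, a precursor of secreted neuropeptides that neurotrophins induce, stood at 10.31 and 10.10 with FGF9, against 7.90 and 8.43 in controls, and rose by 2.04 ± 0.24 (adjusted p = 0.0231).

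Regulators in the same group of 20 were Trib1, a pseudokinase that directs substrates to ubiquitination, at 7.83 and 8.04 with FGF9 and 6.10 and 6.11 in controls, and Snai1, a zinc finger repressor of epithelial genes, at 7.94 and 7.58, against 6.44 and 5.82. Inka2, an inhibitor of the kinase PAK4, stood at 8.21 and 8.42, against 6.63 and 6.15, and Hectd2, a ubiquitin ligase, at 10.24 and 10.34, against 8.60 and 8.79. All 4 rose, by 1.59 to 1.93, with an adjusted p of 0.0231 each, and none of their groups overlapped. The cyclin Ccnd1 (1.66 and 2.61 in the pairs) and 4 genes of DNA replication and mitosis completed the proliferative side of the 20. The 4 were the origin licensing factor Cdc6 (1.47 and 2.06), the methylation maintenance factor Uhrf1 (1.43 and 2.12), the PCNA-associated factor Pclaf (1.42 and 1.90) and cyclin A2, Ccna2 (1.42 and 1.57). The Ccna2 groups overlapped, at 10.38 and 8.56 with FGF9 and 8.96 and 6.99 in controls.

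**Figure D2:**
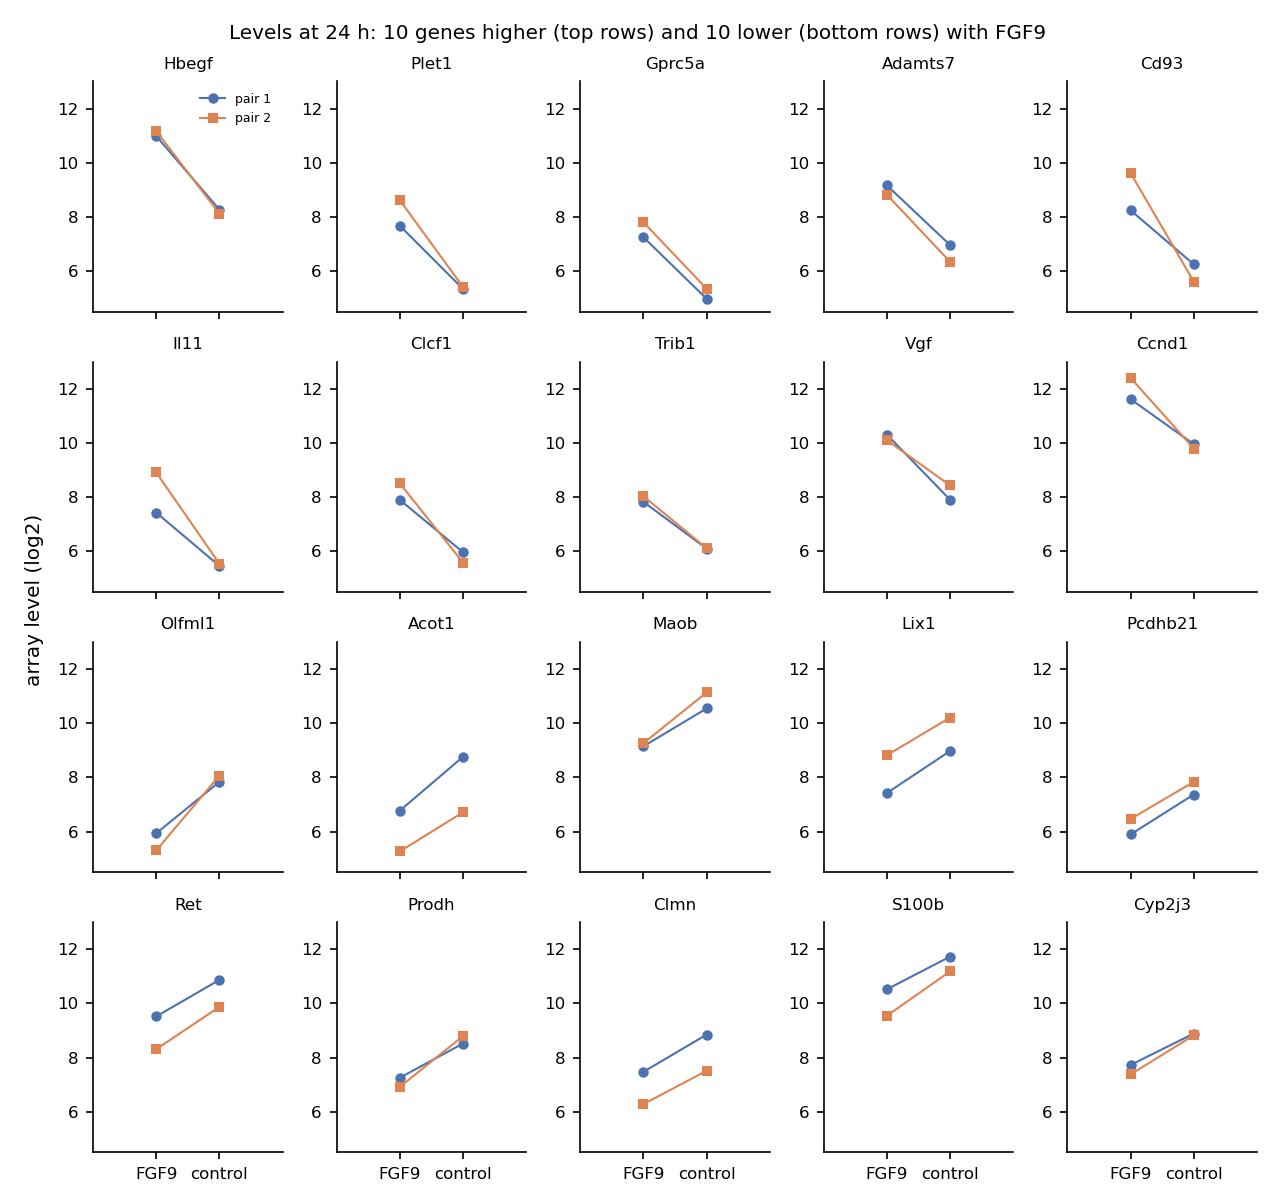
Array levels (log2) at 24 h of the 10 genes with the largest shared rise and the 10 with the largest shared fall, with FGF9 on the left and control on the right of each panel, and lines joining the arrays of a pair (circles pair 1, squares pair 2). Every line of the upper 10 genes slopes down towards the control and every line of the lower 10 slopes up; in Acot1 the pairs stand apart enough for the groups to overlap.

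Promoters of the genes that rose most were read because ERK acts through factors with known short binding words. Of the 14506 genes, 11951 had a window of 250 bases before to 50 after the start in the RefSeq table (rat assembly GRCr8), as did 11 of the 20 highest genes. The AP-1 word TGANTCA was in 2 of these 11 windows (18.2%), against 745 of all 11951 (6.23%). The CRE word TGACGTCA, bound by CREB factors, was also in 2 (18.2%), against 2.46%. The ETS word CCGGAAGT and the E2F word TTTNGCGC were in 0 of the 11, against 5.93% and 1.77% of all. The E-box CACGTG was in 1 (9.09%), against 7.88%. In the 15 windows of the list of FGF-ERK feedback and target genes, the AP-1 and ETS words were in 0 and the CRE word in 1 (6.67%). Both strands were searched. With so few windows these shares are a description, and a word is not evidence of binding. The windows around the words are given with the word in capitals, so that the reader can see them in their setting; each is written 5′ to 3′ along the gene.
Il11, AP-1, chr1:78098460-78098506 (+), first base of the word at -142: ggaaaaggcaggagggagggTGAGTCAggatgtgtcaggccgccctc
Plet1, AP-1, chr8:59738472-59738518 (+), -147: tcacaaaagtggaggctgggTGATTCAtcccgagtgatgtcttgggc
Vgf, CRE, chr12:25277083-25277130 (-), -90: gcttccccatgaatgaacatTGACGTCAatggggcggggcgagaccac
Ltbp1, CRE, chr6:26177382-26177429 (-), -108: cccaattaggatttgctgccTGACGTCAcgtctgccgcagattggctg
The Vgf window also holds the E-box CACGTG, with its first base at -65.

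The other genes among the 20 largest shared falls had varied roles. Lix1, a protein of limb and neural development, stood at 7.43 and 8.82 with FGF9, against 8.97 and 10.21 in controls. Entpd2, which breaks down extracellular ATP, stood at 9.31 and 8.78, against 10.42 and 9.85, and Mmd2, a membrane protein of the progestin receptor family, at 9.84 and 8.96, against 10.98 and 10.94. Every one of these pairs was lower with FGF9. Cyp2j3, a cytochrome P450 that makes epoxides of arachidonic acid, fell by 1.30 ± 0.20, Nkain4, a partner of the sodium pump, by 1.39 ± 0.20 and the protocadherin Pcdhb21 by 1.42 ± 0.21, with adjusted p of 0.024, 0.0378 and 0.0231. Protocadherin beta genes lie in a cluster of close copies, so the probes may read more than 1 of them.

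Genes of the machinery that builds ribosomes were higher as a group, by modest amounts. Of 28 nucleolar and ribosome assembly genes, 27 were higher in both pairs and 1 was lower, against 31.8% and 32.9% of all genes, and the median difference was 0.38 (0.40 in pair 1 and 0.38 in pair 2). Fbl, the methyltransferase fibrillarin of the nucleolus, stood at 9.74 and 9.51 with FGF9, against 8.72 and 8.48 in controls, and rose by 1.02 ± 0.18 (adjusted p = 0.0289). It was the only member that passed, and 13 had an unadjusted p under 0.05 with all 8 arrays, all higher. Polr1b, a subunit of RNA polymerase I, differed by 0.70 and 0.74, the small-subunit processing factor Heatr1 by 0.55 and 0.58, and Utp4, of the same complex, by 0.62 and 0.51. For each of these 3 both FGF9 arrays lay above both controls. Cytosolic ribosomal proteins, the product of that pathway's partner genes, were higher in 25 of 27 members and lower in 0, with a smaller median of 0.23 and 2 members at an unadjusted p under 0.05 (Rpl3 with 0.45 and 0.71 was the largest). Aminoacyl-tRNA synthetases, which load amino acids onto tRNA, were higher in 15 of 20 and lower in 1, with a median of 0.17, led by Vars1 (0.57 and 0.55) and Farsb (0.33 and 0.44). At 10 days the medians of these 3 lists were 0.18, 0.38 and 0.03.

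Nucleotide and polyamine synthesis, which feeds the same growth, had a similar shift. Of 17 genes, 15 were higher in both pairs and 0 lower, with a median of 0.38 (0.36 and 0.37) and 9 at an unadjusted p under 0.05. Prps2, which makes the ribose phosphate donor of all nucleotides, stood at 10.79 and 10.73 with FGF9, against 9.95 and 9.87 in controls, and rose by 0.84 ± 0.16 (adjusted p = 0.041). Srm, spermidine synthase, differed by 0.54 and 0.90, Ppat, the first committed enzyme of purine synthesis, by 0.70 and 0.51, and Cad, which starts pyrimidine synthesis, by 0.56 and 0.55, and these did not pass. Myc itself, whose protein drives many genes of both lists, stood at 8.01 and 7.71 with FGF9 and 7.10 and 7.13 in controls, a difference of 0.75 ± 0.24 that did not pass (adjusted p = 0.069). Housekeeping genes, for comparison, had a median of 0.09 over 14 members, with 8 higher, 4 lower and 0 at an unadjusted p under 0.05.

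The E-box CACGTG, which MYC and related factors bind, was in 7 of 25 nucleolar windows (28%) and 5 of 18 synthetase windows (27.8%), against 7.88% of all windows, but in 2 of 15 of the nucleotide list (13.3%) and 1 of 21 of the ribosomal proteins (4.76%). Over the other lists its share ran from 0 (collagens among them) to 62.5% (5 of 8 Hox windows). In the FOXO list, which leaned lower, it was in 3 of 15 windows (20%). The ETS word CCGGAAGT was in 9 of 25 nucleolar windows (36%) and 7 of 18 synthetase windows (38.9%), against 5.93% of all. It is known from promoters of constitutively active genes. The ETS word was also in 3 of 21 windows of the ribosomal proteins (14.3%), 3 of 20 of the citrate cycle list (15%) and 0 of 11 of the housekeeping list. With so few windows these shares are a description. A word is not evidence of binding, and the part of MYC or ETS factors in these lists was not tested. One window is shown for each word, from a gene with one of the larger differences in its list. Fbl is of the nucleolar list and Srm of the nucleotide list. The ETS word reads ACTTCCGG on this strand.
Fbl, ETS, chr1:92597320-92597367 (+), -67: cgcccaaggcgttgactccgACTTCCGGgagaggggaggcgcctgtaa
Srm, E-box, chr5:164308809-164308854 (+), -173: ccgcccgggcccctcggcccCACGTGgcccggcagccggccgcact

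Genes that FOXO factors and low insulin signalling maintain were on the lower side. Of 17 members, 13 were lower and 2 higher in both pairs, with a median of -0.38 (-0.30 in each pair), and 7 had an unadjusted p under 0.05, all lower. Pik3ip1, an inhibitor of PI3K, stood at 7.65 and 7.23 with FGF9, against 8.60 and 8.64 in controls, and fell by 1.18 ± 0.16 on the log2 scale (adjusted p = 0.0351). Klf15, a factor of fasting metabolism, differed by -0.80 on average, the repressor Bcl6 by -0.56 and -0.66 and Foxo3 itself by -0.48 and -0.59, without passing. Of the MYC-opposing factors named here, Mxi1 (-0.64 and -0.75) and Mxd1 (-0.53 and -0.63) were lower in both pairs and Mxd3 was higher (0.34 and 0.56), and none passed. The FOXO list had a median of -0.01 at 10 days, and Pik3ip1 differed there by -0.03 and 0.01. The difference of its effect between the times did not pass.

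Several lists of metabolic enzymes leaned lower, among them the breakdown of amines and amino acids. Maob, the monoamine oxidase of astrocytes, stood at 9.15 and 9.25 with FGF9 and 10.54 and 11.13 in controls and fell by 1.64 ± 0.17 (adjusted p = 0.0231). Prodh, proline dehydrogenase of mitochondria, stood at 7.25 and 6.92, against 8.52 and 8.79, and fell by 1.57 ± 0.26 (adjusted p = 0.0264). Cbs, which diverts homocysteine to cysteine, stood at 6.61 and 5.82, against 7.56 and 7.67, and fell by 1.40 ± 0.25 (adjusted p = 0.0464). No group overlapped in these 3. Over the whole list of 28 amine and amino acid catabolism genes, 21 were lower and 4 higher in both pairs, the median was -0.26, and 10 lower members and 0 higher had an unadjusted p under 0.05. Maob and Cbs are enriched in astrocytes, and astrocyte markers were lower in 12 of 14 members, with summed levels of 11.64 and 11.32 with FGF9 and 12.15 and 12.13 in controls. Their part in these differences was not tested.

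Detoxifying enzymes followed the same direction, with 20 of 36 genes of glutathione, xenobiotic and NRF2 biology lower and 8 higher in both pairs (median -0.23). The glutathione transferases Gstm7 (10.00 and 9.92 with FGF9, 10.83 and 10.98 in controls), Gstm2 and Mgst1 fell by 0.95 ± 0.14, 0.91 ± 0.31 and 0.84 ± 0.18 on the log2 scale. The groups overlapped for Gstm2. The Gstm genes are close copies of each other, so probes may read more than 1 of them. Sult1a1, a sulfotransferase, differed by -0.98 and -2.32 without passing. Hmox1, heme oxygenase 1 and the classic NRF2 target, had the opposite sign, at 9.29 and 10.12 with FGF9 and 8.83 and 8.73 in controls, and did not pass. Of 23 genes of fatty acid metabolism, 15 were lower and 3 higher in both pairs. The thioesterase Acot1 fell by 1.72 ± 0.41 (adjusted p = 0.0231), but its pairs stood so far apart, at 6.77 and 5.27 with FGF9 and 8.76 and 6.71 in controls, that the groups overlapped. Pdk4, the kinase that shuts pyruvate out of the citrate cycle, stood at 6.59 and 6.07 with FGF9, against 7.55 and 7.45, and fell by 1.17 ± 0.33 (adjusted p = 0.0328).

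Serine and one-carbon enzymes were split. Mthfd1l, the mitochondrial formyltetrahydrofolate synthetase, rose by 0.85 ± 0.19 (adjusted p = 0.048), and Shmt2 (0.50 and 0.80), Shmt1 (1.47 and 0.57) and the glutamine transporter Slc1a5 (1.00 and 2.23) had the same sign without passing. The serine synthesis enzymes Phgdh (-0.66 and -0.68) and Psat1 (-0.45 and -1.16), which are enriched in astrocytes, had the opposite sign, and Nupr1, a stress-induced cofactor of the same ATF4 list, fell by 0.83 ± 0.17 (adjusted p = 0.0418). The Nupr1 groups overlapped. Glycolysis and hypoxia genes (29 members, median 0.01), the citrate cycle and respiratory chain (22, median -0.06) and cholesterol synthesis (17, median 0.09) had medians near 0. Ldha, which makes lactate, stood at 12.81 and 13.15 with FGF9, against 12.25 and 12.61 in controls, with a difference of 0.55 ± 0.17 that did not pass. Of the chaperones of the endoplasmic reticulum, Manf, a secreted stress-induced factor, rose by 0.94 ± 0.15 (adjusted p = 0.0351).

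**Figure D3:**
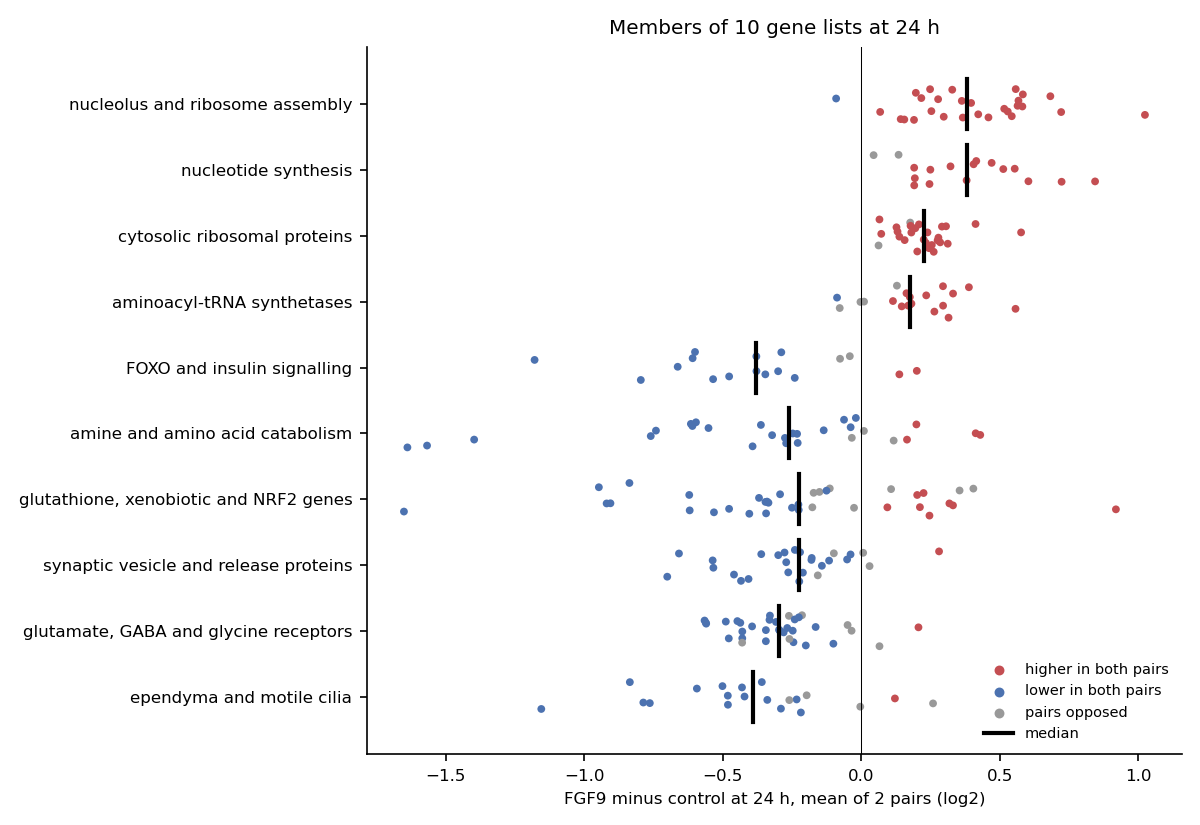
Difference of FGF9 minus control at 24 h (log2, mean of the pairs) for every measured member of 10 gene lists, with a bar at each list's median. Red points were higher in both pairs, blue points lower in both and grey points opposed. Nucleolar and nucleotide synthesis members lie almost wholly to the right, around a median of 0.38, while FOXO, cilia and receptor members lie to the left, at -0.38, -0.39 and -0.30.

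Of 30 metalloproteases, Adamts proteases and their inhibitors, 10 were higher and 12 lower in both pairs, and the 2 that passed were higher. Adamts7, a metalloprotease that cleaves cartilage oligomeric matrix protein, stood at 9.16 and 8.82 with FGF9, against 6.97 and 6.34 in controls, and rose by 2.34 ± 0.18 (adjusted p = 0.011). It was also the 1 gene that passed with all 8 arrays when the pair was a random block. Timp1, an inhibitor of metalloproteases, stood at 11.91 and 12.06, against 10.89 and 10.99, and rose by 1.04 ± 0.24 (adjusted p = 0.0289). Adamts1 (0.77 and 1.98) and Adamts9 (0.58 and 1.18) had the same sign without passing, while the gelatinase Mmp2 (-0.38 and -0.44), the macrophage elastase Mmp12 (-0.78 and -0.33) and Adamts15 (-0.66 and -0.49) were lower in both pairs and did not pass. Of 17 genes of the plasminogen system and serpins, 6 were higher and 6 lower in both pairs. Among them S100a10, a receptor subunit for plasminogen, and F3, tissue factor, rose by 0.89 ± 0.35 and 0.95 ± 0.18, and Plaur, the urokinase receptor, differed by 0.31 and 0.96. The F3 groups overlapped.

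Of 41 proteoglycans, tenascins and hyaluronan genes, 16 were higher and 15 lower in both pairs, and 3 rose and 3 fell. Cd44, the hyaluronan receptor, stood at 10.79 and 11.15 with FGF9, against 9.87 and 9.41 in controls, and rose by 1.33 ± 0.23 (adjusted p = 0.0456). Xylt1, which starts glycosaminoglycan chains, rose by 1.32 ± 0.21 (adjusted p = 0.0418) and Ncan, the chondroitin sulfate proteoglycan neurocan of perineuronal matrix, by 0.85 ± 0.15 (adjusted p = 0.0409). The small leucine-rich proteoglycans osteomodulin (Omd), osteoglycin (Ogn) and fibromodulin (Fmod) fell, by 1.41 ± 0.21, 1.12 ± 0.16 and 1.00 ± 0.24. The groups overlapped for Ogn and Fmod but not for Omd. Omd stood at 5.96 and 6.51 with FGF9, against 6.96 and 8.34 in controls. Bcan, brevican, a relative of neurocan, was lower in both pairs (-0.62 and -0.93) without passing. The proteins that fell are products of meningeal and other fibroblasts. Of 19 fibroblast and pericyte markers 14 were lower and 2 higher in both pairs, with summed levels of 9.09 and 9.44 with FGF9, against 9.58 and 9.80 in controls, and Mfap4, a microfibril protein (-1.17 and -1.04), Tagln, a smooth muscle actin-binding protein (-0.81 and -1.25), and Igf2 (-0.70 and -1.03) fell. In the limma fit to all 8 arrays their unadjusted p was 0.0546 for Mfap4, 0.00152 for Tagln and 0.35 for Igf2. The part of these cells in the matrix differences was not tested. Of 16 collagen genes 10 were lower and 2 higher in both pairs, among them Col1a2 (-0.55 and -0.55) and Col14a1 (-0.68 and -0.69), and none passed. Olfml1, a secreted olfactomedin-like protein, had the largest shared fall, at 5.93 and 5.30 with FGF9 and 7.83 and 8.07 in controls (-2.33 ± 0.26, adjusted p = 0.0231).

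Adhesion receptors changed by single subunits. Itga5, the alpha subunit of the fibronectin receptor, stood at 8.58 and 8.69 with FGF9, against 6.94 and 6.88 in controls, and rose by 1.72 ± 0.23 (adjusted p = 0.0231). Itga7, a laminin receptor subunit, stood at 8.95 and 7.84, against 7.50 and 6.74, and rose by 1.28 ± 0.15 (adjusted p = 0.0264), while Itgb4, of a second laminin receptor, stood at 8.11 and 7.18, against 9.10 and 8.63, and fell by 1.22 ± 0.18 (adjusted p = 0.0328). Itgb1, the beta subunit that pairs with Itga5 and Itga7, differed by 0.37 and 0.50. In the whole list of 27 integrins and adhesion molecules 5 were higher and 14 lower in both pairs (median -0.18), so these rises stood in a list that leaned lower.

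In the list of BMP and TGF-beta genes, 7 of 28 were higher and 12 lower in both pairs, and 2 rose and 3 fell. Id3, an inhibitor of differentiation factors and a direct BMP target, stood at 8.36 and 8.62 with FGF9, against 9.47 and 9.75 in controls, and fell by 1.12 ± 0.17 (adjusted p = 0.0264). Id4 fell by 0.88 ± 0.22 and the type I receptor Bmpr1b by 0.98 ± 0.21 (adjusted p = 0.0464 and 0.0457), and the ligand Bmp6 differed by -1.12 and -0.61. The ligand Bmp2 (0.36 and 0.62) and the signal transducer Smad9 (0.33 and 1.07) were higher in both pairs without passing. On the TGF-beta side, Tgfb3 stood at 7.73 and 8.80 with FGF9, against 6.65 and 7.14, and rose by 1.37 ± 0.19 (adjusted p = 0.0324), as did Ltbp1, which stores latent TGF-beta in the matrix, with pair differences of 1.74 and 1.52 (1.63 ± 0.14, adjusted p = 0.0231).

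Of the Wnt genes, Wnt7b, a ligand known for action on brain vessels and oligodendrocyte lineage, stood at 9.81 and 8.94 with FGF9, against 7.98 and 7.48 in controls, and rose by 1.64 ± 0.18 (adjusted p = 0.0231). Sfrp1, a secreted Wnt antagonist, rose by 0.82 ± 0.18, and Dkk3, of the Dickkopf family, fell by 0.84 ± 0.15. Over all 31 Wnt genes, these 3 included, 14 were lower and 6 higher in both pairs. Notch pathway genes were lower in 14 of 21 and higher in 5 (median -0.27), among them Notch2 (-0.48 and -0.92) and the target Hey2 (-0.46 and -0.92), and none passed. Of 33 guidance genes, 9 were higher and 15 lower in both pairs, and 2 rose. Sema3a, a repulsive cue for axons, stood at 10.39 and 11.36, against 9.38 and 10.28, and rose by 1.04 ± 0.34, and the ephrin receptor Epha2 stood at 6.87 and 7.30, against 5.92 and 5.79, and rose by 1.23 ± 0.22. Sema3e (0.56 and 0.79) and the semaphorin receptor Nrp2 (0.89 and 0.57) were also higher in both pairs, and Epha3 (-0.67 and -0.93), Sema3b (-0.48 and -0.53) and Sema5a (-0.45 and -0.56) were lower in both, and none of these passed. Ret, the signalling receptor for GDNF family ligands, stood at 9.52 and 8.31 with FGF9, against 10.87 and 9.87 in controls, and fell by 1.46 ± 0.14 (adjusted p = 0.0231).

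FGF9's own receptors were not among the genes that passed. Fgfr1 differed by 0.05 and 0.18 in the pairs, Fgfr2 by -0.20 and -0.40 and Fgfr3, the receptor enriched in astrocytes, by -0.30 and -0.71. The endogenous rat Fgf9 transcript stood at 7.04 and 8.11 with FGF9, against 7.25 and 8.34 in controls. The factor was added as protein, so this level does not check the treatment. Genes that ERK induces were examined as that check: 19 of 21 were higher and 0 lower in both pairs (median 0.75), and 6 rose. Among them were Spry4 (1.12 and 1.37), Dusp5 (1.19 and 1.47) and Dusp6 (1.01 and 1.65), which encode feedback inhibitors. The list was chosen with earlier results of these data known, so the check is not independent of them.

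Lists of transporters, channels and receptors for glutamate, GABA and glycine had more members lower than higher in both pairs, while the few members that passed were higher. Slc20a1, a phosphate transporter, stood at 12.21 and 12.28 with FGF9, against 11.13 and 10.99 in controls, and rose by 1.18 ± 0.14 (adjusted p = 0.0264), and Slc6a17, a vesicular amino acid transporter of neurons, by 1.08 ± 0.22 (adjusted p = 0.048). Of 25 transmitter and amino acid transporters, 16 were lower and 2 higher in both pairs, including Slc1a2, the main glutamate transporter of astrocytes (-0.51 and -1.11), and Slc6a9, the glycine transporter (-0.47 and -0.65). Glutamate, GABA and glycine receptors were lower in 26 of 34 members and higher in 1, with a median of -0.30 (-0.16 in pair 1 and -0.47 in pair 2). Gabrg1 (-0.48 and -0.47), Grm5 (-0.45 and -0.53) and Gabbr2 (-0.47 and -0.39) were typical, and 6 members had an unadjusted p under 0.05. Sodium, calcium and chloride channels were lower in 23 of 31 (median -0.21), and potassium channels in 15 of 29 (median -0.29). Scn7a, a sodium channel of glia and sensory neurons, differed by -0.83 and -2.35, and Kcnj13, an inward rectifier, by -0.63 and -2.37, with the larger share in pair 2 for both. Of 43 monoamine, purine and peptide receptors, 13 were higher and 16 lower in both pairs, close to the shares of all genes. Among them F2rl1, protease-activated receptor 2, stood at 7.89 and 7.01 with FGF9 and at 6.43 and 5.82 in controls, and rose by 1.33 ± 0.17 (adjusted p = 0.024).

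Neuronal transcripts were lower by small amounts. Of 23 markers of neurons and axon cytoskeleton, 21 were lower and 1 higher in both pairs, with a median of -0.23 (-0.18 and -0.31), summed levels of 10.49 and 11.15 with FGF9 and 10.57 and 11.41 in controls, and none passed. Mapt, the axonal microtubule protein tau, differed by -0.49 and -0.59, and Elavl3, an RNA-binding protein of neurons, by -0.39 and -0.55. Gap43, a growth cone protein, was the exception, at 11.43 and 11.58 with FGF9, against 10.04 and 11.11 in controls. Synaptic vesicle genes were lower in 22 of 27 and higher in 1 (median -0.22), among them Cplx1 (-0.61 and -0.70), Syn2 (-0.37 and -0.70) and Sv2b (-0.41 and -0.99), and none passed. The lower receptors and channels above moved in the direction of these neuronal markers, whose part in them was not tested. At 10 days the medians of the neuronal, synaptic and receptor lists were -0.73, -0.76 and -0.61. Among neuropeptides, Npy rose, at 11.77 and 12.29 with FGF9, against 10.82 and 10.73 in controls (1.26 ± 0.21, adjusted p = 0.0378).

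Genes of motile cilia, which ependymal cells carry, were lower in 15 of 20 members and higher in 1, with a median of -0.39 (-0.42 and -0.34). Spag6l, of the central pair of the axoneme, stood at 6.74 and 6.02 with FGF9, against 7.74 and 7.34 in controls, and fell by 1.15 ± 0.23 (adjusted p = 0.029), and Cfap126 fell by 0.84 ± 0.15 (adjusted p = 0.0418). Summed levels of the list were low, at 6.40 and 6.11 with FGF9 and 6.83 and 6.58 in controls. Markers of myelin and mature oligodendrocytes were lower in 17 of 22 members and higher in 3 (median -0.42). Fa2h, which makes the hydroxylated fatty acids of myelin lipids, fell by 0.96 ± 0.14 (adjusted p = 0.0328) with -0.96 in each pair, although its groups overlapped, at 8.79 and 6.34 with FGF9 and 9.75 and 7.30 in controls. Mobp (-0.61 and -1.64), Mag (-0.42 and -0.66) and Mbp (-0.38 and -0.28) did not pass. Markers of oligodendrocyte precursors had no common direction, with 5 of 13 higher and 4 lower. Among astrocyte markers only S100b passed, at 10.52 and 9.54 with FGF9, against 11.73 and 11.18 (-1.42 ± 0.17, adjusted p = 0.0252), beside other lower genes of astrocytes such as Agt, angiotensinogen, at 9.26 and 7.77, against 10.27 and 9.32, and Synm, a filament protein, which both fell.

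**Figure D4:**
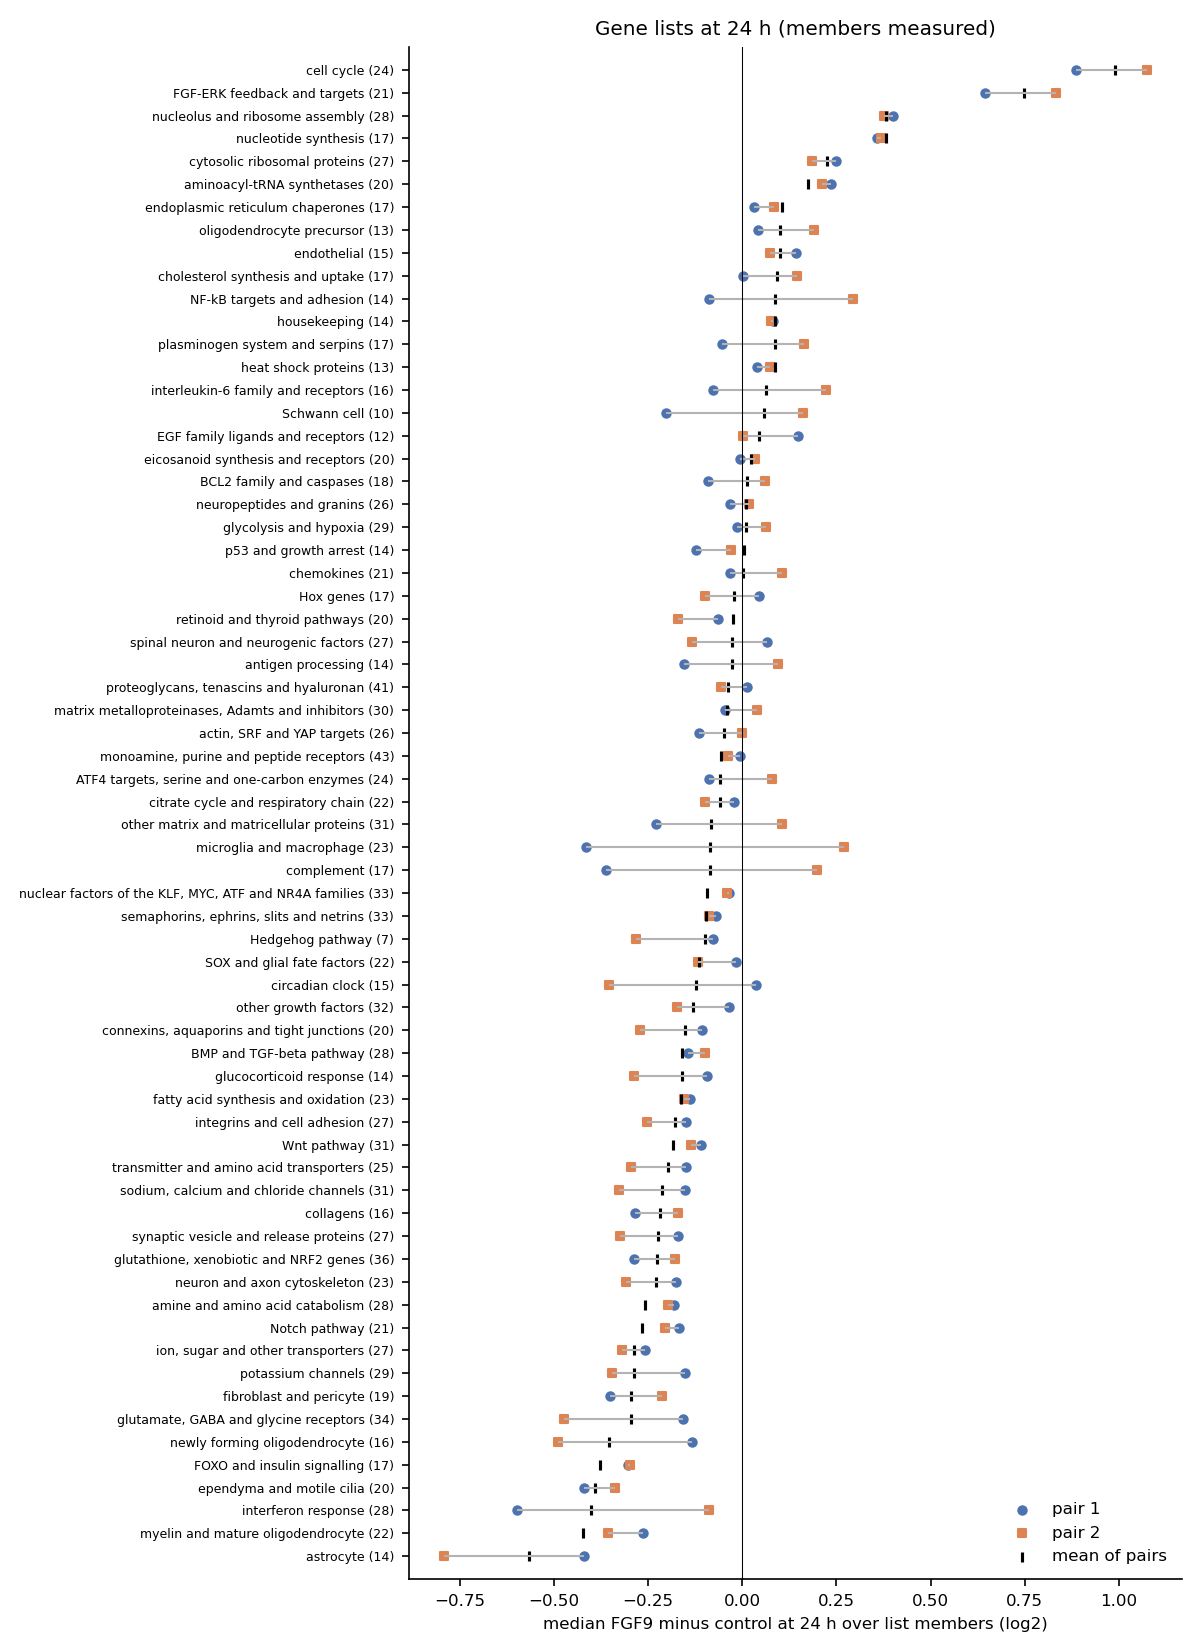
Median difference of FGF9 minus control at 24 h (log2) over the members of each of the 66 gene lists, with pair 1 (circles), pair 2 (squares) and the mean of the pairs (bars); the number of members is in parentheses. Cell cycle and ERK genes lie furthest to the right, nucleolar and nucleotide genes next at 0.38, and interferon, microglia and complement lists show the widest gaps between pairs.

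Among the 66 lists, the medians of the pairs lay furthest apart in microglia, complement and interferon genes. Of 23 microglia and macrophage markers, 17 had opposite signs in the pairs, 2 were higher and 4 lower in both, and the list medians were -0.42 in pair 1 and 0.27 in pair 2. Complement genes also differed between the pairs, with medians of -0.36 and 0.20, although Cd55, which restrains complement, rose (1.00 and 1.64, adjusted p = 0.0358). The Cd55 groups overlapped. Of 28 interferon response genes, 16 were lower and 3 higher in both pairs, and 8 lower and 1 higher had an unadjusted p under 0.05. Their median was -0.60 in pair 1 and -0.09 in pair 2. Rsad2 (-2.03 and -0.80) was lower in both and Gbp2 higher in both (0.78 and 2.32). Mx2, an antiviral GTPase, stood at 8.37 and 8.35 with FGF9, against 10.37 and 9.24 in controls. No interferon gene passed. The chemokines that attract monocytes were higher in both pairs by unequal amounts. Ccl2 stood at 9.29 and 12.45 with FGF9, against 8.40 and 9.30 in controls, and Ccl7 at 7.76 and 12.35, against 6.53 and 8.70, so that the highest value came from the FGF9 array of pair 2 and neither passed. The part of microglia in these differences was not tested. Cxcl12, a chemokine of astrocytes and meninges, fell in contrast, at 9.15 and 8.01 with FGF9 and 10.27 and 10.14 in controls (-1.63 ± 0.47, adjusted p = 0.041).

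Other lists showed no common direction and no member that passed. Hox genes, which mark position along the cord, were higher in 4 of 17 and lower in 3 in both pairs, and p53 and growth arrest genes higher in 3 of 14 and lower in 6. BCL2 family genes and caspases, which set the threshold of cell death, were higher in 4 of 18 and lower in 6, and eicosanoid genes higher in 6 of 20 and lower in 6.

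The genes with the largest opposed differences were few. Dhrs9, a retinol dehydrogenase, was the 1 gene past 2-fold in both pairs with opposite signs (-1.04 and 1.32), at 6.36 and 10.67 with FGF9 and 7.40 and 9.35 in controls. Ltbp2 (-0.91 and 1.40), Sbk1 (0.74 and -1.02), the cation transporter Slc22a2 (0.83 and -1.11) and Ttr, the thyroid hormone carrier of choroid plexus (1.96 and -0.86), followed. Ttr and Slc22a2 also differed between the control arrays, at 7.17 and 9.71 for Ttr and 7.59 and 10.05 for Slc22a2.

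The 24 h effect was then set beside the effect at 10 days in the same block design. Of the 76 genes at least 2-fold higher in both pairs at 24 h, 60 were higher in both 10-day pairs and 1 was lower in both. Of the 20 genes 2-fold lower, 13 were lower in both 10-day pairs and 2 were higher in both. These 2 were Hspb1, a small heat shock protein, at 11.30 and 10.90 with FGF9 and 12.42 and 12.32 in controls at 24 h (-1.27 ± 0.47, adjusted p = 0.0262), with 10-day differences of 0.46 and 2.63, and Clmn, a calponin-like protein, with -1.37 and -1.23 at 24 h and 0.27 and 0.64 at 10 days. Of the 237 genes that passed at 24 h, 205 had a mean difference of the same sign at 10 days. The share of all genes that kept their sign between the times is not given here, so these counts are a description. Some early rises were smaller later by value: Adamts7 differed by 0.81 and 0.26 at 10 days, Gprc5a by 1.34 and 0.05, Il11 by 1.63 and 0.05 and Npy by -0.40 and 0.13. Others were as large or larger, such as Itga5 (2.43 and 3.32) and Lix1, which fell at 24 h (-1.55 and -1.39) and differed by -2.94 and -2.27 at 10 days.

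Whether an effect differed between the times was tested by the interaction of FGF9 and time in the fit to all 8 arrays. It passed for 7 genes (0.0483%), all with a higher effect at 10 days, and for none of the 40 genes with the largest shared differences at 24 h (lowest adjusted p = 0.13). A smaller value at 10 days is thus not shown to be a smaller effect for any of these. The genes with the smallest p among those higher at 24 h included Yars2, the mitochondrial tyrosyl-tRNA synthetase, with 1.03 and 0.69 at 24 h and -0.64 and -0.76 at 10 days (adjusted p = 0.156), and Adamts7 (adjusted p = 0.172). Fgfr3 had opposite signs by value, with a mean difference of -0.50 at 24 h and 1.29 at 10 days, and this difference did not pass (adjusted p = 0.165).

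**Figure D5:**
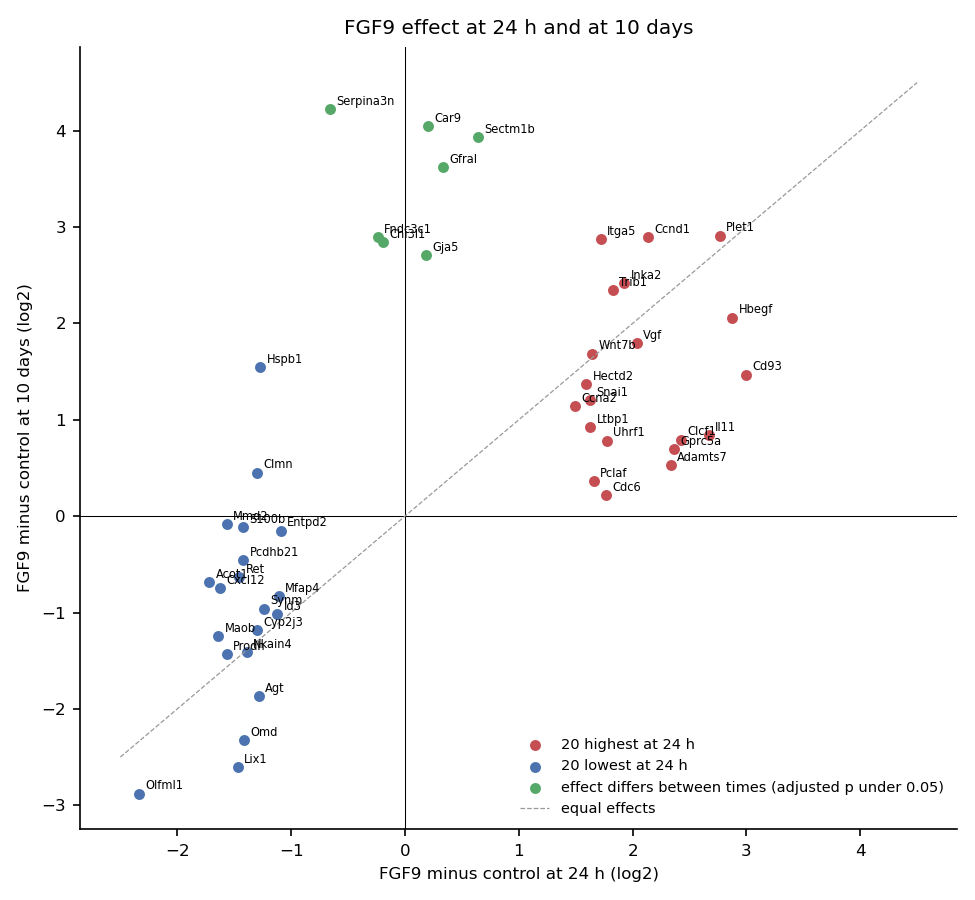
Mean difference of FGF9 minus control (log2) at 24 h (horizontal axis) and at 10 days (vertical axis) for the 20 genes with the largest shared rise (red) and fall (blue) at 24 h and the 7 genes whose effect differed between the times (green), with a dashed line of equal effects. Of the red genes 18 were higher in both 10-day pairs, of the blue genes 13 were lower in both, and the green genes lie between -0.66 (Serpina3n) and 0.64 (Sectm1b) at 24 h and higher at 10 days.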

How the data were processed

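The deposited table holds summary values for 29214 features of 8 arrays, whose scale the sources used here do not state; the deposited values were read as log2 from their range. Per the submitters' processing notes, GCRMA and Partek 6.5 were used; the order of steps is not given in the sources used here. Features were named through the platform annotation: 15310 had 1 symbol, 323 several and 13581 none, and only those with 1 were used. For 527 genes with several features the one with the highest mean was kept, which left 14506 genes. The deposited values were not rescaled.

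Effects were FGF9 minus control, fitted with limma 3.58.1 (R 4.3.3) to all 8 arrays with the pair (time and replicate number) as a fixed block, which leaves 2 residual degrees of freedom, and adjusted by Benjamini-Hochberg over all 14506 genes. Adjusted p quoted for 24 h effects are from the same limma model on the 24 h arrays alone unless all 8 are named; those for the difference between times are from all 8. Same-numbered arrays deviated together from their group means, with a correlation of 0.757 at 24 h and 0.819 at 10 days, and the numbers come from the titles. With 2 pairs per time, this was a check and not a statement of the labels that cultures were paired.

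Genes were named by rule: the 20 largest shared differences per direction, up to 4 per list and direction with a shared difference of at least 0.3, 5 opposed genes, 5 per direction for the difference between times, and 11 chosen by symbol. Olfactory, vomeronasal and taste receptors and loci without a standard name were passed over. The lists and members were chosen with earlier results of these data known. The method was tested on simulated data. Alternatives covered the block, the arrays included, scaling, a low-value filter and the choice of feature.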

Additional observations from a re-analysis of the deposited data

Results flagged for a closer look

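The effect of FGF9 differed between the time points for 7 genes by the interaction in the limma fit to all 8 arrays, and for each it was lower at 24 h than at 10 days. The 24 h effect minus the 10-day effect was -4.88 for Serpina3n, a protease inhibitor of reactive astrocytes, -3.84 for Car9, a carbonic anhydrase, and -3.28 for Gfral, the GDF15 receptor. It was -3.30 for Sectm1b, -3.13 for Fndc3c1, -3.03 for Chi3l1, a secreted chitinase-like protein, and -2.52 for Gja5, a connexin. At 24 h none of the 7 passed: the pair differences of Car9 were -0.08 and 0.49, those of Gja5 0.23 and 0.14 and those of Serpina3n -0.18 and -1.13. At 10 days the pairs differed by 4.31 and 3.79 for Car9, 2.68 and 2.73 for Gja5 and 4.06 and 4.38 for Serpina3n.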

How the results depend on the processing

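The number of genes with an FGF9 effect at 24 h, 0 with all 8 arrays and the pair as a fixed block, stayed 0 without the replicate block and under quantile scaling, subtracted array medians, the low-value filter, averaged features, and trended or robust variance. It was 1 (Adamts7) with the pair as a random replicate block and 237 with the replicate block on the 24 h arrays only, or with 10-day pair 1 or pair 2 left out, which gives the same fit to 24 h; on the 24 h arrays without a block, an alternative chosen after seeing the data, it was 0. Leaving out single arrays gave 0 to 237: any 24 h array gave 0 and any 10-day array 237. The genes whose effect differed between the times, 7 in the fit to all arrays, numbered 0 without the replicate block, 322 without 10-day pair 1 and 11 with array medians subtracted, and 0 to 322 when single arrays were left out. The 76 genes at least 2-fold higher in both pairs became 113 to 244, and the 20 lower ones 57 to 164, when a left-out array reduced the comparison to 1 pair. None of the 40 genes with the largest shared differences at 24 h reversed in these refits. They were picked for the same sign in both pairs, so a refit on 1 pair could not reverse them. List medians close to 0 changed sign under some scalings or filters, among them chemokines, p53 and BCL2 genes, Hox genes and proteoglycans, so no direction is given for them. List medians were also compared in size, and counted as moved by a cutoff that is not given here. With array medians subtracted 19 lists moved and 47 did not. Without either pair 1 array at 24 h 18 moved and 48 did not. Without either pair 2 array at 24 h 22 moved and 44 did not. The sizes of many list medians thus depended on single arrays. With 2 arrays per group, the precision is limited by their number.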
